A study of Homo sapiens with 2 samples.

Results

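The 10 genes described here carry a long-chain fatty acid from outside a hepatocyte to its activated form. They were chosen by name for that role from 60623 gene entries, with earlier results of these data known. They comprise the uptake genes CD36, SLC27A2, SLC27A4 and SLC27A5, the fatty acid-binding protein genes FABP1, FABP4 and FABP5, and the long-chain acyl-CoA synthetase genes ACSL1, ACSL3 and ACSL5. They were measured by RNA sequencing in HepG2, a human hepatocellular carcinoma line whose genotype is given as wild type. A library of the FFA group came from cells loaded for 24 h with 1 mM free fatty acids, a mixture of oleic and palmitic acid bound to albumin. A library of the FFA + 9-cis-RA group (the 9-cis-RA library) came from cells given the same 1 mM FFA load together with 10 μM 9-cis-retinoic acid, a ligand of the RXR and RAR nuclear receptors. Cells without FFA were not analysed here, so every value refers to fatty acid-loaded cells of a tumor line. Both libraries carry the same batch label. The comparison asks which of the genes differed when the retinoid was added to the load.

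Long-chain fatty acids enter hepatocytes by diffusion and with the help of membrane proteins, of which CD36 is a scavenger receptor and the SLC27 family (fatty acid transport proteins) both transports and activates its substrates. Inside the cell, fatty acid-binding proteins carry them through the cytosol, and FABP1 is the abundant form of the liver. Acyl-CoA synthetases then join them to coenzyme A, after which they can be oxidized, esterified into triglyceride or built into membranes. In fatty liver this entry path is studied beside synthesis, because either can supply the lipid that is stored. RXR pairs with the PPAR receptors, which bind fatty acids and drive many of these genes in liver, at sites known as DR1 elements.

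Upstream sequences of the genes are given first, because the treatment acts on receptors that bind such sites. RefSeq (GRCh38.p14) start sites from part of the genome were used, and 18 windows belonged to 8 of the 10 genes. CD36 had 6 of them, ACSL1 had 5 and ACSL5 had 2, and FABP4 and FABP5 were not covered. The 250 bases upstream of each start were searched on both strands for the core AGGTCA and for its direct repeat AGGTCANAGGTCA, the DR1 arrangement. A core is also part of any repeat without mismatches. In 4 windows, from 4 genes, the best repeat had at most 2 mismatches over its 12 scored letters. Of all 35116 windows used, 2.57% held such a repeat, and genes with several starts had several chances to hold one. The 4 windows are printed 5′ to 3′ in the direction of transcription, with the best repeat in capitals. The window of ACSL3 is added as a gene whose RNA was higher in the 9-cis-RA library while its best repeat had 5 mismatches.
FABP1, chr2:88128063-88128312, minus strand: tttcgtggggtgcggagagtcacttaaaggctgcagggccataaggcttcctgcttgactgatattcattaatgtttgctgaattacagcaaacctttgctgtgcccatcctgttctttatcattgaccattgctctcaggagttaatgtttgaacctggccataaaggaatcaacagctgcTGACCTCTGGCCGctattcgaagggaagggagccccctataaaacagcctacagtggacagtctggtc
CD36, chr7:80638266-80638515, plus strand: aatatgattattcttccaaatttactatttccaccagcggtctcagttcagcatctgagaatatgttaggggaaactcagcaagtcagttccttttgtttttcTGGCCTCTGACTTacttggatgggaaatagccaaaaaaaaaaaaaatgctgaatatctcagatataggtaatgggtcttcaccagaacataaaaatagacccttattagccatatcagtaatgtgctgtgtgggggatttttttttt
SLC27A2, chr15:50181946-50182195, plus strand: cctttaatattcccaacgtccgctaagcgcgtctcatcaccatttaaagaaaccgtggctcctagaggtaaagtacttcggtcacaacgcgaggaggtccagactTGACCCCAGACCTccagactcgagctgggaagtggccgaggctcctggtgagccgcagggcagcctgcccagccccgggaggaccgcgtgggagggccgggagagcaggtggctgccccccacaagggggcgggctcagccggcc
ACSL1, chr4:184805554-184805803, minus strand: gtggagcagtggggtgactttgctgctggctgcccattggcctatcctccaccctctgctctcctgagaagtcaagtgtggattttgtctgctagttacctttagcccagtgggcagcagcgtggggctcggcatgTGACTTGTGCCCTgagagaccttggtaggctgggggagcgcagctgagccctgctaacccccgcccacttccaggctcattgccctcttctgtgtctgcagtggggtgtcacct
ACSL3, chr2:222860786-222861035, plus strand: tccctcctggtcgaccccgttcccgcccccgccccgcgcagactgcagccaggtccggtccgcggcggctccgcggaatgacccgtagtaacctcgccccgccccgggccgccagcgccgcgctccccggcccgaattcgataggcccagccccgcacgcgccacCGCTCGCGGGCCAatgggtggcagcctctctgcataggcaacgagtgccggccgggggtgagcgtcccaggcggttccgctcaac

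The repeat of FABP1 lay 68 to 56 bases upstream of the start and held a complete core, which 12.1% of all windows contained. The FABP1 window also held TATAAA within its last 50 upstream bases, as did 2.63% of all windows. The other repeats lay 147 to 135 bases upstream of that CD36 start, 145 to 133 upstream of SLC27A2 and 114 to 102 upstream of that ACSL1 start. ACSL5 held a core in 1 of its windows, while its best repeats had 4 and 3 mismatches. The repeat with a longer gap, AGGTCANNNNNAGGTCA, was found with at most 2 mismatches in 0 of the 18 windows, compared with 2.1% of all windows. These are letter matches alone, and binding was not measured. Which CD36 or ACSL1 start was used in these cells was not measured either, since the counts are per gene.

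Depth was similar, with 60821539 fragments on genes with FFA alone and 57669670 in the 9-cis-RA library. The treatment label was checked with the retinoid response genes CYP26A1, RARB and DHRS3, and 3 of 3 were higher in the library labelled with the retinoid, led by CYP26A1 at 4 and 709 counts. Of 7 hepatocyte markers, ALB, AFP, APOA1, APOB, SERPINA1 and TF stood between 76.8 and 4070 TPM, while TTR reached at most 6.78 TPM. ALB and AFP were lower in the 9-cis-RA library, with log2 fold changes of -0.70 and -0.99. With 1 library per group there was no replicate spread, so no test was made and no p-value or SD is given. Each log2 fold change is FFA + 9-cis-RA against FFA, on size-factor normalized counts plus 1, with an exact 95% interval (Clopper-Pearson) for counting error. These intervals compare the libraries, not the conditions, and do not include the difference that separate cultures of the same treatment would show.

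Across the 10 genes, FABP1, ACSL3 and ACSL5 were higher in the 9-cis-RA library and CD36 was lower. The SLC27 genes, FABP5 and ACSL1 had log2 fold changes between -0.20 and 0.13, and FABP4 was not detected. The counting interval lay above 0 for 5 genes (FABP1, ACSL3, ACSL5, SLC27A4 and ACSL1) and below 0 for 3 (CD36, FABP5 and SLC27A5). SLC27A2 had an interval that held 0. Among the 20431 genes with at least 10 counts over the libraries, 22.5% had an interval above 0 and 25.7% had one below 0. Among the 14411 genes with at least 100 counts, as all 9 detected genes had, these shares were 29.1% and 32.2%. An interval off 0 was therefore common, and the size of the difference separates the genes better. FABP1 had a log2 fold change above 1, as did 3.37% of genes with at least 10 counts and 0.548% of those with at least 100. CD36 had a log2 fold change below -1, as did 4.9% and 1.76% of these genes. The median log2 fold change of the 9 detected genes was 0.11, compared with -0.02 for all genes with at least 10 counts.

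**Figure D1:**
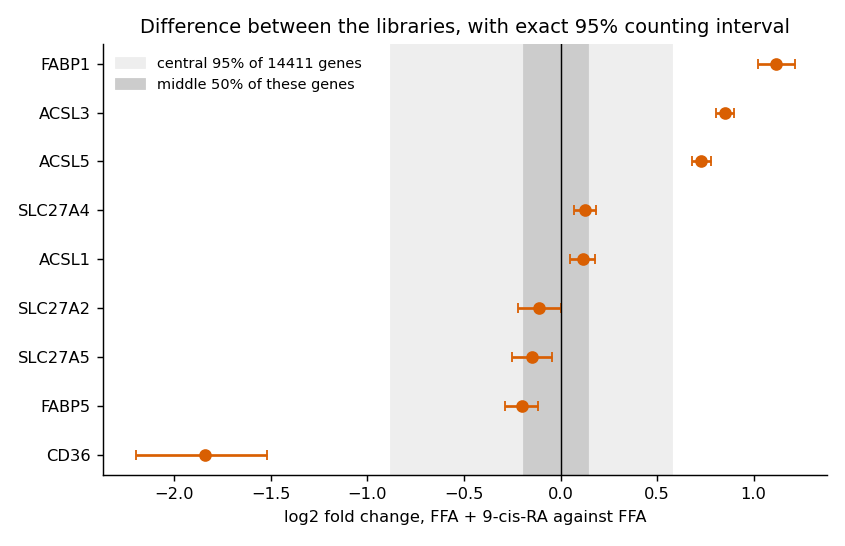
Log2 fold change of the 9 detected genes (points, horizontal axis) with exact 95% counting intervals (bars), 1 library per group, over the central 95% (light band, -0.88 to 0.58) and middle 50% (dark band, -0.19 to 0.14) of the 14411 genes with at least 100 counts. CD36 lies left of the light band, and FABP1, ACSL3 and ACSL5 lie right of it.

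**Figure D2:**
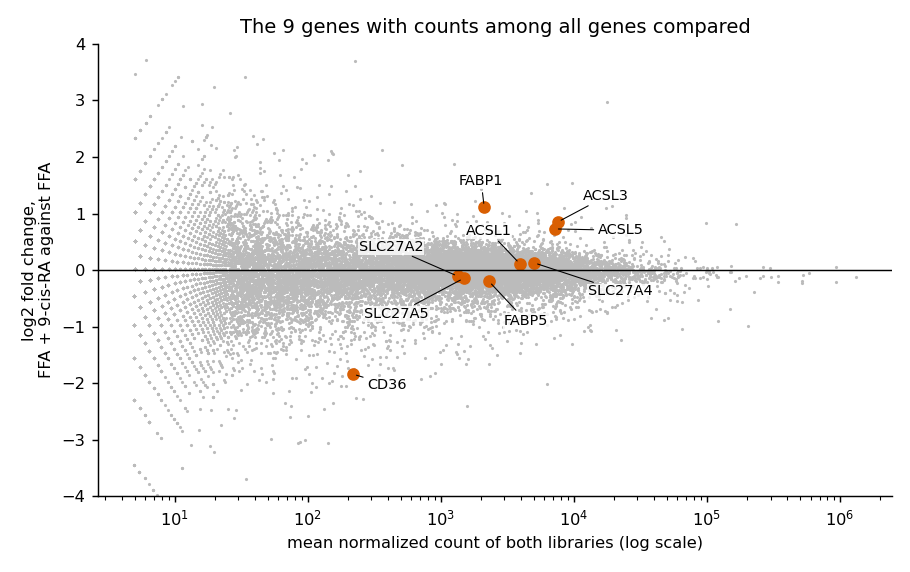
Log2 fold change (vertical axis) against the mean normalized count of both libraries (horizontal axis, log scale) for the 20431 genes compared (grey), with the 9 detected genes in orange. The scatter is widest at low counts, and 7 genes beyond 4 in either direction lie outside the plot.

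CD36 showed the largest difference of the 10. The gene (ENSG00000135218) lies on the plus strand of chromosome 7 from 80369575 to 80679277, and it encodes a membrane glycoprotein that binds long-chain fatty acids and oxidized lipoproteins. It was counted 346 times with FFA alone and 94 times in the 9-cis-RA library. Its level was 3.58-fold lower with the retinoid (95% counting interval 2.87 to 4.59), a log2 fold change of -1.84 (-2.20 to -1.52). Only 32 of the 14411 genes with at least 100 counts had a lower log2 fold change. The CD36 window printed above held a repeat with at most 2 mismatches. Whether those letters bear on the CD36 difference was not tested. In a bulk sample, fewer cells with CD36 RNA and less CD36 RNA per cell cannot be told apart.

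CD36 was also a rare transcript in these cells. Its level per length was 1.52 TPM with FFA alone and 0.447 TPM in the 9-cis-RA library, the lowest of the 9 detected genes in each. Of the summed TPM of its family of scavenger receptors, CD36 took 1.63% and 0.423%. SCARB1, the HDL receptor gene of the same family, took 74.1% and 71.0% and had a log2 fold change of 0.03 (-0.01 to 0.07). SCARB2 took 24.3% and 28.6%. With the length of the longest annotated transcript instead, SCARB1 took 55.4% and 51.0%, SCARB2 43.1% and 48.6% and CD36 1.53% and 0.382%. Taken from the counts without the pseudocount, as for all differences between genes given with a Wald interval, the log2 fold change of CD36 minus that of SCARB1 was -1.88, with a Wald 95% counting interval from -2.21 to -1.55. CD36 is abundant in macrophages, adipocytes and endothelium, so their markers were read beside it. The 6 macrophage markers summed to 0.709 and 1.23 TPM, with PTPRC at 0 counts in each library and CSF1R at 4 and 1. CD68 had 5 and 15 counts, CD14 had 9 and 20, CD163 had 34 and 24 and MARCO had 1 and 1. Of the 3 with at least 10 counts, 2 (CD68 and CD14) had a log2 fold change above 1, beside 3.37% of all genes with at least 10 counts. Both rest on few counts, where the scatter between the libraries is widest. The interval lay off 0 for CD68, at 1.44 (0.08 to 3.43), and held 0 for CD14 and CD163. The 4 endothelial markers summed to 1.29 and 0.866 TPM, with KDR at 0 counts in each. VWF made up most of that sum, with 184 and 118 counts. Of the 5 adipocyte markers, ADIPOQ had 1 and 0 counts and LEP 0 and 1, whereas CIDEC, which lipid-loaded hepatocytes also express, had 936 and 898. PLIN1 had 21 and 5 counts and LIPE 58 and 38, and the 5 summed to 24.0 and 24.6 TPM. The cells sequenced were of the HepG2 line alone, so these are marker counts within that line. A link between them and the CD36 difference was not tested.

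The SLC27 genes differed little between the libraries. SLC27A4 (FATP4), which activates long and very long chains and spans 128340527 to 128361470 of chromosome 9, had 4854 counts with FFA alone and 5200 with the retinoid. Its log2 fold change was 0.13 (0.07 to 0.18). SLC27A2 (FATP2), a transporter and very long-chain acyl-CoA synthetase of liver on chromosome 15 from 50182196 to 50236385, had 1408 and 1280 counts. Its log2 fold change was -0.11, with an interval from -0.22 to 0.0004 that held 0. SLC27A5 (FATP5), a liver protein that also activates bile acids (chromosome 19, 58479512 to 58512413), had 1572 and 1392 counts. Its log2 fold change was -0.15 (-0.25 to -0.04). All 3 values lay within the middle 50% of the genes with at least 100 counts. By Wald counting interval, the log2 fold change of SLC27A4 exceeded that of SLC27A2 by 0.24 (0.11 to 0.36) and that of SLC27A5 by 0.27 (0.16 to 0.39). The difference between SLC27A2 and SLC27A5 was 0.04, with an interval from -0.11 to 0.19. SLC27A5 lost its interval below 0 with total-count scaling, and SLC27A2 gained one with size factors from protein-coding genes or with the trend on mean expression removed.

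Per length, SLC27A4 led its family in each library, at 71.6 and 83.3 TPM. SLC27A2 followed at 24.0 and 23.7 TPM and SLC27A5 at 9.33 and 8.97 TPM. A TPM ratio between these libraries exceeds the ratio of normalized counts by a factor of 1.06 for every gene, or 0.09 on the log2 scale. TPM is scaled to a fixed sum, whereas normalized counts are divided by size factors. SLC27A4 accounted for 64.0% of the summed TPM of the 6 SLC27 genes with FFA alone and 68.3% in the 9-cis-RA library. SLC27A6, a form of heart and other tissues, had 0 counts in each.

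The fatty acid-binding proteins diverged. FABP1 (ENSG00000163586, chromosome 2, 88122982 to 88128062) encodes the liver form, which binds fatty acids and delivers them to organelles and to PPARα. FABP1 was counted 1349 times with FFA alone and 2871 times in the 9-cis-RA library. Its level was 2.17-fold higher with the retinoid (2.03 to 2.32), a log2 fold change of 1.12 (1.02 to 1.21), and 55 genes with at least 100 counts ranked above it. The whole counting interval lay above 1. DR1-like letters were printed above for FABP1, CD36, SLC27A2 and ACSL1, with log2 fold changes of 1.12, -1.84, -0.11 and 0.11. ACSL3 had one of 0.85 with 5 mismatches in its best repeat. Whether these letters bear on the FABP1 difference was not tested.

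FABP5, the epidermal form, which can carry retinoic acid as well as fatty acids, had 2487 and 2122 counts. Its log2 fold change was -0.20 (-0.29 to -0.12), so FABP1 exceeded it by 1.32 (Wald interval 1.19 to 1.44). FABP5 lies on chromosome 8 from 81280536 to 81284777 and has many processed pseudogenes elsewhere in the genome. Of 15 listed FABP5 pseudogenes 5 had a count, and FABP5P7 had the most, with 352 and 315. Fragments with more than one mapping were left out of the counts, so the FABP5 level is uncertain and may be too low.

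FABP4, the adipocyte form on chromosome 8 from 81478419 to 81483236, had 0 counts in each library. A count of 0 allows up to 3 counts, which for this gene is 0.104 TPM with FFA alone and 0.113 TPM in the 9-cis-RA library. The exact 95% Poisson interval that was used for the other levels reaches further, to 0.128 and 0.139 TPM. No fold change can be given, and a difference in FABP4 RNA was not detectable at this depth. No other gene covers its exons on the same strand, nor those of the other 9 genes.

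With the exon length of the count tables, the balance within the FABP family differed between the libraries. FABP1 held 28.2% of the summed TPM of 10 FABP genes with FFA alone and 50.8% in the 9-cis-RA library, while FABP5 held 66.0% and 47.6%. Because the FABP5 level may be too low, the FABP1 share may be too high in each library. FABP1 stood at 26.6 and 61.4 TPM and FABP5 at 62.2 and 57.6 TPM. Their levels in the 9-cis-RA library had overlapping counting intervals. With the length of the longest annotated transcript instead, FABP5 led in each library, and FABP1 held 19.2% and 38.4% of the family. The larger FABP1 share in the 9-cis-RA library thus held with either length, whereas the order of FABP1 and FABP5 there did not.

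**Figure D3:**
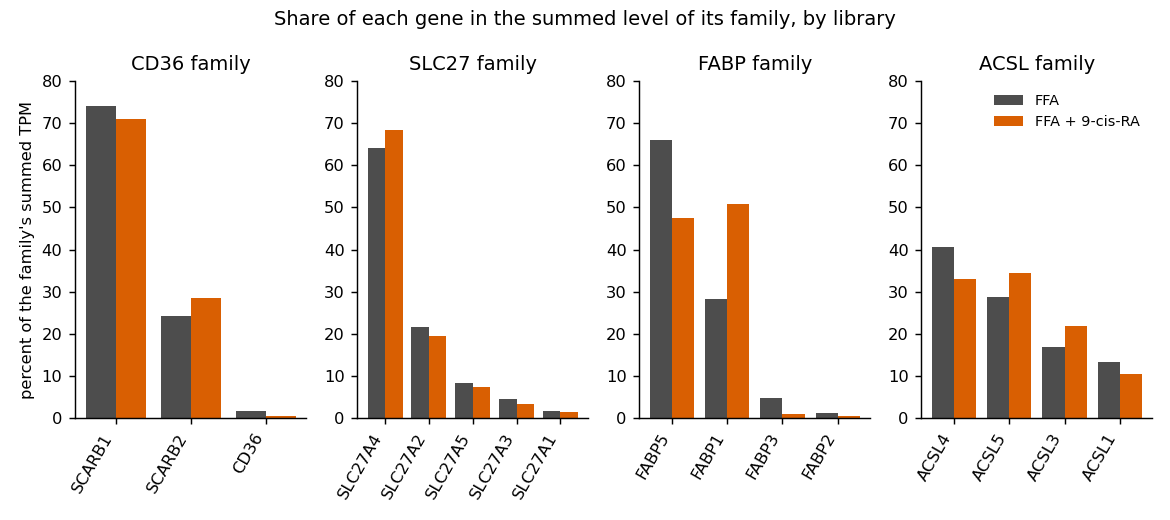
Percent of the summed TPM of each family (vertical axis) held by each gene in the FFA (grey) and FFA + 9-cis-RA (orange) libraries, for genes above 1% in either, 1 library per bar. FABP1 takes 28.2% and 50.8% of its family, and CD36 takes 1.63% and 0.423%.

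All 3 synthetase genes had more normalized counts with the retinoid, but by unequal amounts. Of the 14411 genes with at least 100 counts, 7001 were higher too. ACSL6 of the same family, outside the 10 genes, was lower, with a log2 fold change of -1.10. ACSL3 (ENSG00000123983, chromosome 2, 222860942 to 222944639), a synthetase of the endoplasmic reticulum and of growing lipid droplets, had 5459 counts with FFA alone and 9668 in the 9-cis-RA library. Its level was 1.81-fold higher (1.75 to 1.87), a log2 fold change of 0.85 (0.80 to 0.90). ACSL5 (ENSG00000197142, chromosome 10, 112374018 to 112428380), found on the endoplasmic reticulum and mitochondria, had 5461 and 8873 counts. Its level was 1.66-fold higher (1.60 to 1.71), a log2 fold change of 0.73 (0.68 to 0.78). The ACSL3 and ACSL5 values lay at percentiles 99.1 and 98.6 of the log2 fold changes of genes with at least 100 counts.

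ACSL1 (chromosome 4, 184755595 to 184826818), the major synthetase of liver and a classical PPAR target, had 3791 and 4026 counts. Its log2 fold change was 0.11 (0.05 to 0.18), close to the 0.17 (0.13 to 0.21) of ACSL4, which prefers arachidonic acid. The log2 fold change of ACSL3 exceeded that of ACSL1 by 0.74 (Wald interval 0.66 to 0.82) and that of ACSL5 exceeded it by 0.61 (0.53 to 0.69). ACSL3 and ACSL5 themselves differed by 0.12 (0.06 to 0.19). A processed copy of ACSL3, ACSL3P1, had 212 and 222 counts and a log2 fold change of 0.09 (-0.18 to 0.37), an interval that held 0.

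The summed level of the 5 ACSL genes was 214 TPM with FFA alone and 315 TPM in the 9-cis-RA library. ACSL4 was the most abundant without the retinoid, at 87.2 TPM and 40.7% of the family, followed by ACSL5 at 61.4 TPM and 28.7%. With it, ACSL5 stood at 108 TPM and 34.4% and ACSL4 at 104 TPM and 33.1%. ACSL3 stood at 36.0 and 69.1 TPM and went from 16.8% to 21.9% of the family. ACSL1 stood at 28.7 and 33.1 TPM and went from 13.4% to 10.5%. These shares moved in the same directions with the longest transcript as length.

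Ordered per length, the FFA library ran from SLC27A4 (71.6 TPM) through FABP5, ACSL5, ACSL3, ACSL1, FABP1, SLC27A2 and SLC27A5 to CD36. In that order FABP5 and ACSL5, ACSL1 and FABP1, and FABP1 and SLC27A2 were neighbours whose counting intervals overlapped. The 9-cis-RA library ran from ACSL5 (108 TPM) through SLC27A4, ACSL3, FABP1, FABP5, ACSL1, SLC27A2 and SLC27A5 to CD36, and only FABP1 and FABP5 overlapped. With the longest transcript as length, FABP5 stood first in the FFA order instead, at 95.2 TPM, and SLC27A4 (60.5 TPM) came just below ACSL5 (61.0 TPM). In the 9-cis-RA order that length put FABP5 next after ACSL5, at 88.0 TPM, above SLC27A4 at 70.3 TPM.

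**Figure D4:**
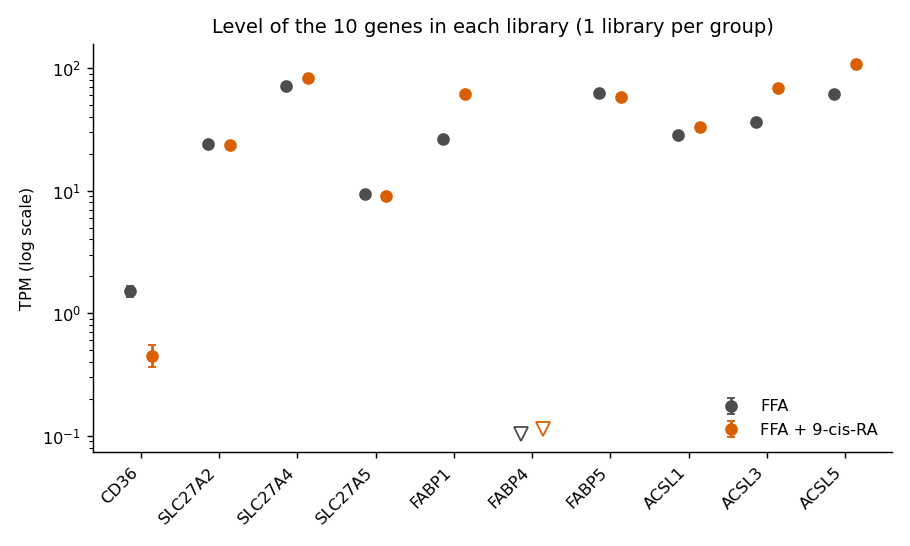
Level of each gene in TPM (vertical axis, log scale) in the FFA (grey) and FFA + 9-cis-RA (orange) libraries, 1 library per group, with exact 95% Poisson intervals that are mostly smaller than the points. Open triangles mark FABP4 at the level that 3 counts would give, 0.104 and 0.113 TPM, since it had 0 counts.

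The other genes of the pathway were read from lists of 74 genes, of which 53 had at least 10 counts. The counting interval lay above 0 for 18 of the 53, below 0 for 22 and held 0 for 13. Over all genes with at least 10 counts the shares above and below 0 were 22.5% and 25.7%, and with at least 100 counts 29.1% and 32.2%, so shares of this size are the background for each list. A log2 fold change above 1 was seen for 1 gene and below -1 for 5. Over all genes these shares were 3.37% and 4.9% with at least 10 counts, and 0.548% and 1.76% with at least 100. Of the 5, FFAR4 (16 and 5 counts) and CRABP2 (16 and 6) rest on few counts. The median of the 53 was -0.05. Among the other uptake genes 2 of 8 compared had an interval above 0 and 3 had one below, again beside 22.5% and 25.7%. MFSD2A, a lysophospholipid transporter, was highest at 0.35 (185 and 231 counts) and SLC27A3 was lowest at -0.37 (577 and 437 counts). GOT2, a mitochondrial aminotransferase also described as a fatty acid-binding protein of the plasma membrane, was the most abundant at 126 and 130 TPM, with a log2 fold change of -0.05.

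The other members of the FABP family, which include the cellular retinol- and retinoic acid-binding proteins, lay mostly below 0. Of 13 listed, 6 had enough counts, and the interval lay below 0 for 4, beside 25.7% of all genes with at least 10 counts, and the median was -0.83. FABP3, the heart form, had 130 counts with FFA alone and 33 with 9-cis-RA, so the log2 fold change was -1.92 (-2.55 to -1.39). RBP2, a cellular retinol-binding protein gene and the most abundant of this list in the FFA library (15.3 TPM), had a log2 fold change of -0.91. FABP1 was therefore the highest of the 8 FABP-family genes that could be compared, FABP5 included.

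Of 17 other acyl-CoA synthetase genes, 14 were compared, and the interval lay above 0 for 4 and below 0 for 7, beside 29.1% and 32.2% of all genes with at least 100 counts. ACSM5, a medium-chain synthetase, had 436 and 193 counts and a log2 fold change of -1.14 (-1.40 to -0.90). ACSL6, a synthetase of brain, had 254 and 116 counts and one of -1.10 (-1.43 to -0.78). ACSS1, the mitochondrial acetyl-CoA synthetase, was both the most abundant of this list, at 108 and 142 TPM, and its highest, at 0.31 (0.28 to 0.34). The values of ACSL3 and ACSL5 lay above those of all 14. ACSM2A and ACSM2B are near-identical neighbours, and their counts of 93 and 74 and of 231 and 145 are uncertain for that reason.

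After activation, acyl-CoA is bound or hydrolyzed again, and among the genes of these steps the interval lay above 0 for 5 of 16, below 0 for 6 and held 0 for 5, against 29.1% above and 32.2% below for all genes with at least 100 counts. DBI, the acyl-CoA-binding protein, was the most abundant at 317 and 297 TPM, with a log2 fold change of -0.18 (-0.22 to -0.15). Its relative ACBD7 had 106 and 277 counts, which gave a log2 fold change of 1.40 (1.09 to 1.75), the highest of those compared. BAAT, which conjugates bile acids to amino acids, was the lowest at -0.88, with 149 and 79 counts.

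Genes that release or regulate fatty acids from lipoproteins had intervals above 0 for 6 of 9 compared and below 0 for 2, beside 22.5% and 25.7% of all genes with at least 10 counts. ANGPTL8, an inhibitor of lipoprotein lipase made by liver, had 10177 and 16706 counts, which gave a log2 fold change of 0.74 (0.71 to 0.78), and was the most abundant at 397 and 706 TPM. LIPC, hepatic lipase, was lowest at -0.68, with 216 and 132 counts. LPL, the lipase that ANGPTL8 acts on, had 0 counts in each library.

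Among 12 receptors and liver factors related to these genes, the interval lay above 0 for 3, below 0 for 7 and held 0 for 2, beside the same 22.5% and 25.7%. PPARD was highest, with 1191 and 1646 counts and a log2 fold change of 0.49 (0.39 to 0.60), and PPARG was lowest of those with at least 100 counts, with 1019 and 712 counts and one of -0.49 (-0.63 to -0.35). PPARA, the main PPAR of liver, stood at 0.15 (0.07 to 0.23). RXRA, named here after its value was seen because it is the receptor under study, had 8291 and 5978 counts and a log2 fold change of -0.44 (-0.49 to -0.40). HNF4A was the most abundant, at 158 and 152 TPM, with a log2 fold change of -0.14. These values stand beside those of FABP1, CD36 and the synthetases, and their part in them was not tested.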

How the data were processed

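RNA of 2 HepG2 libraries, 1 per group, was sequenced after poly(A) enrichment. The authors deposited raw counts of fragments per gene from featureCounts version 2.0.1, with build GRCh38 per the labels. Its header lists paired fragments with both ends mapped, a fragment length check and reverse-strand counting, and fragments with several mappings or overlapping several genes were left out by default. This lowers genes with near-identical copies. The aligner and annotation release are not given in the sources used here.

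Symbols were matched for 60295 of 60623 entries. The whole table was scaled by size factors from DESeq2 version 1.42.0, or as alternatives by those from edgeR version 4.0.16 (TMM, in R version 4.3.3), total counts or protein-coding genes. Log2 fold changes used a pseudocount of 1 (alternatives 0.1 and 5), which understates low genes, and a minimum of 10 counts summed over the libraries (alternatives none and 50). Lowess trends (span 0.3) on length and expression were removed as alternatives. TPM used the exon length in the count tables, or the longest transcript of each gene in GENCODE 29. Exact 95% intervals, and floors of 3 counts, cover counting error only. Wald intervals compare log2 count ratios of pairs of genes chosen after their values were seen. Python 3.11.15, numpy 2.4.6, scipy 1.17.1, pandas 2.3.3, statsmodels 0.14.6 and matplotlib 3.10.9 were used. The promoter windows searched, and the shares over all windows, hold none from chromosome 8, where FABP4 and FABP5 lie. The scaling, log2 fold changes and exact intervals of counts were tried on simulated Poisson counts, which hold no difference between cultures. TPM, family shares, Wald intervals, trend removal and the promoter search were not tried in this way.

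The members and gene lists were chosen with earlier results of these data known. From each further list, genes with at least 100 counts were named when their log2 fold change was past 1 with an interval off 0, or when they were its highest, lowest or most abundant. Any other gene was picked with its values in view, and 1 gene that this rule names is not reported here. No model was fitted, because 1 library per group gives no estimate of spread.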

Additional observations from a re-analysis of the deposited data

How the results depend on the processing

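The direction of each of the 9 detected genes held under all scalings, pseudocounts and trend removals tried. FABP1 alone stayed above 1 and CD36 alone below -1. With the main settings, the only ones tried for this, that also held when the whole interval had to pass. With total counts ACSL3 was at 0.90 and ACSL5 at 0.78, outside their counting intervals. The number of detected genes with an interval below 0 was 2 with total counts and 4 with protein-coding size factors or the expression trend removed, against 3.

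Over all genes, those above 1 and below -1 numbered 689 and 1002. They were 341 and 594 with a pseudocount of 5, 3771 and 2493 without a count minimum, 153 and 361 with at least 50 counts, and 79 and 190 with the whole interval past 1.

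With the longest transcript as length, TPM in FFA and FFA + 9-cis-RA were 2.11 and 0.622 for CD36, 22.2 and 21.9 for SLC27A2, 60.5 and 70.3 for SLC27A4, 11.8 and 11.3 for SLC27A5, 24.4 and 56.4 for FABP1, 95.2 and 88.0 for FABP5 and 34.9 and 40.1 for ACSL1.

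No paired analysis was possible because each group has 1 library; no replicate was left out for the same reason.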
